A study of Mus musculus with 4 samples.

Results

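The genes that build the N-glycan precursor, transfer it to protein and supply its sugars were followed in MC38 cells, a line from a mouse colon tumour, some of which carried a Mgat5 knockout made by CRISPR-Cas9. The members were named by function, as enzymes of the dolichol pathway, subunits of the oligosaccharyltransferase, the glucosidases that start trimming, and genes of hexosamine and nucleotide sugar supply. All 41 of 41 were measured, each by 1 probe set, among 19505 named genes on the Clariom S mouse array. The control group held 1 array of wild-type cells (WT) and 1 of cells given an empty vector (MOCK). The knockout group held 1 array each of 2 knockout clones, titled KO T5 clone 1 and KO T5 clone 2. They are called clone 1 and clone 2 here, and n = 2 per group. Each knockout array stands for a single clone and neither control is titled as a clone, so effects of Mgat5 loss and of cloning cannot be told apart. The labels do not say that the arrays of a group came from separate cultures, so p-values measure only the spread between these 4 arrays, which may be technical.

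N-glycans are first assembled as an oligosaccharide on the lipid dolichol, on the cytosolic and then the luminal face of the endoplasmic reticulum (ER). The oligosaccharyltransferase moves the finished oligosaccharide as a block to asparagine residues of proteins entering the ER, and glucosidases then trim it so that lectin chaperones can bind. In the Golgi, branching enzymes such as MGAT5 extend the trimmed chain with N-acetylglucosamine (GlcNAc), taken from UDP-GlcNAc that the hexosamine pathway makes and a Golgi transporter imports.

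Values are the authors' normalized log2 signals, where 1 unit is a doubling, and a difference is the knockout mean minus the control mean unless stated otherwise. The arrays differed in scale. The brightest 1% of the 22206 probe sets began at 14.7 on WT and at 15.8 to 15.9 on the other arrays. Group differences are therefore given as deposited and after quantile normalization, which sets all arrays to the same distribution, while signals are as deposited unless stated. Mgat5 itself stood at 8.19 on MOCK, 8.27 on WT, 7.46 on clone 1 and 7.57 on clone 2, lower in both clones by a mean of 0.71 (SE 0.37, limma adjusted p = 0.631), or by 1.11 quantile-normalized. The position of its probes relative to the edit is not known here, which limits this check of the labels. The colon epithelial markers were low on every array. Of 10 listed (Epcam, Cdh1 and 8 others), 8 lay below the median of the negative control features on all 4 arrays, and the other 2, Krt8 and Vil1, below the 75th percentile of those features. Of 6 measured leukocyte markers 5 lay below the negative control median on all arrays, as did 4 of 4 endothelial markers and 0 of 5 fibroblast markers. Of the latter, Col1a1 and Lum lay below the 75th percentile of the negative controls on all 4 arrays and Col1a2 on 3. Pdgfrb ranged from 11.42 to 12.02. As deposited, 4 of the 5 fibroblast markers had a higher knockout mean and 1 a lower one. Dcn, the matrix proteoglycan decorin, stood at 12.95 on MOCK, 13.61 on WT, 8.94 on clone 1 and 11.18 on clone 2, lower in both clones (limma adjusted p = 0.121). It passed under 7 of 14 alternatives, with an adjusted p as low as 2.69e-06. That lowest value came from a filter at the median signal, which called 196 of 11103 probe sets. Some of the 7 left 1 clone out, so a single knockout array stood for the group. The part of Dcn in the results was not tested.

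No member passed the test between the groups. Limma, which pools the variance of all probe sets, called 0 of the 41 genes at an adjusted p under 0.05, where 0.0405% of all probe sets were called as deposited and 0.0045% after quantile normalization. At an unadjusted p under 0.05, 7 members were higher and 0 lower as deposited, against 7.54% and 1.22% of all probe sets. Of the 11103 probe sets above the median signal, 1353 were higher and 75 lower. After quantile normalization 2 members were higher and 0 lower, against 4.7% and 4.22% of all probe sets. The 7 were Srd5a3, Alg2, Alg3 and Alg12 of precursor assembly, Rpn2 of the transferase, Mogs of trimming and Gnpnat1 of the hexosamine pathway. Alg2 and Gnpnat1 were the 2 found in both scalings.

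Most members were somewhat higher in the clones as deposited, and that lean nearly vanished when the arrays were set to 1 distribution. As deposited, 38 of 41 had a higher knockout mean, where 65.1% of all probe sets did. So did 8680 of the 11103 probe sets above the median signal, where 40 of the members lie. The median difference was 0.46 log2 units against 0.18 over all probe sets and 0.36 over those above the median signal. With each array centred on its median 33 of 41 were higher. After quantile normalization 24 of 41 were, against 48.3%, and the median was 0.047 against -0.021. Both clones lay above both controls for 22 members as deposited, a state met by 27.8% of all probe sets and by 34.7% of those above the median signal. Both clones lay below both controls for 0, against 11.7%. After quantile normalization the counts were 13 above, against 19.2% of all probe sets and 18.4% of the brighter ones, and 5 below, against 21.3%.

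The difference between the controls was as wide as the lean itself. MOCK was above WT for 38 of 41 members as deposited, by a median of 0.48 log2 units, and by at least 1 unit for 6 (Ogt, Stt3a, Stt3b, Ddost, Ost4 and Krtcap2), where 8.79% of all probe sets had MOCK that far above. After quantile normalization the median was 0.0024 and 0 members had MOCK that far above, against 1.85%. The gap went with signal. MOCK lay above WT by a median of 0.83 for the 15 members with a mean signal of 12 or more, and by 0.92 for all 2042 probe sets of that brightness, against 0.37 for the other 26 members. Against WT alone both clones lay above for 36 members and below for 0, where 54.7% and 17.8% of all probe sets did so. Against MOCK alone they lay above for 22 and below for 5, against 35.0% and 30.8%.

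**Figure D1:**
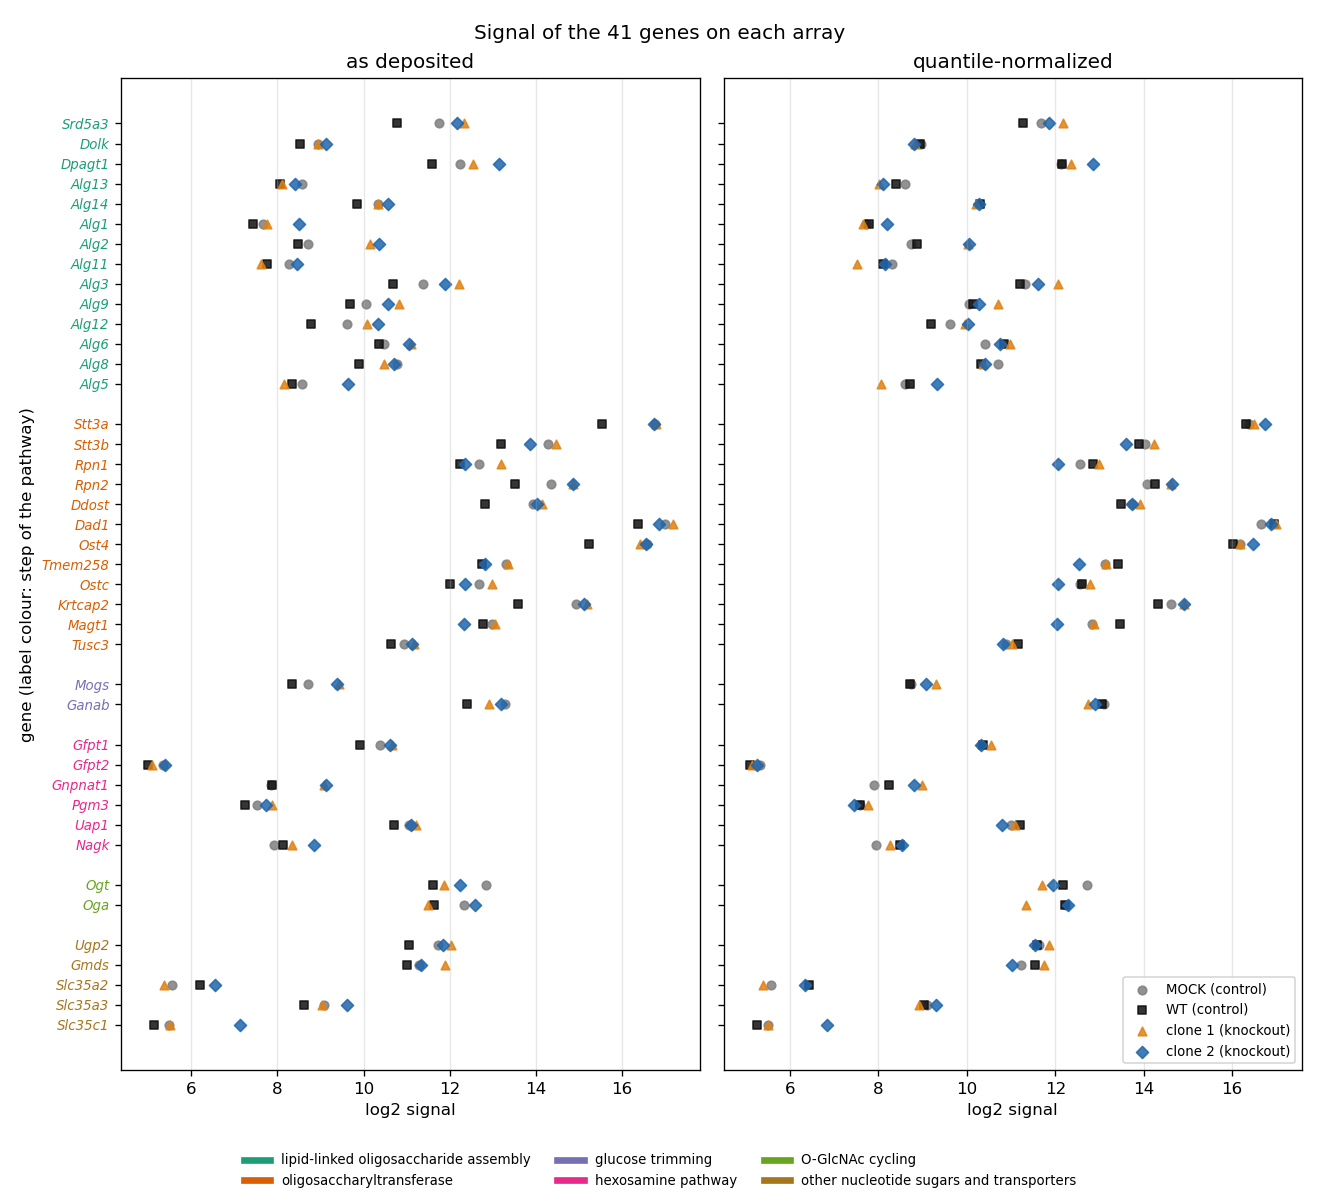
Log2 signal (horizontal axis) of each of the 41 genes (rows, label colour by step) on the 4 arrays, as deposited on the left and quantile-normalized on the right, with 1 point per array. As deposited the WT squares sit left of the MOCK circles for 38 genes, and the clone points of Alg2 and Gnpnat1 lie to the right of both controls in both panels.

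**Figure D2:**
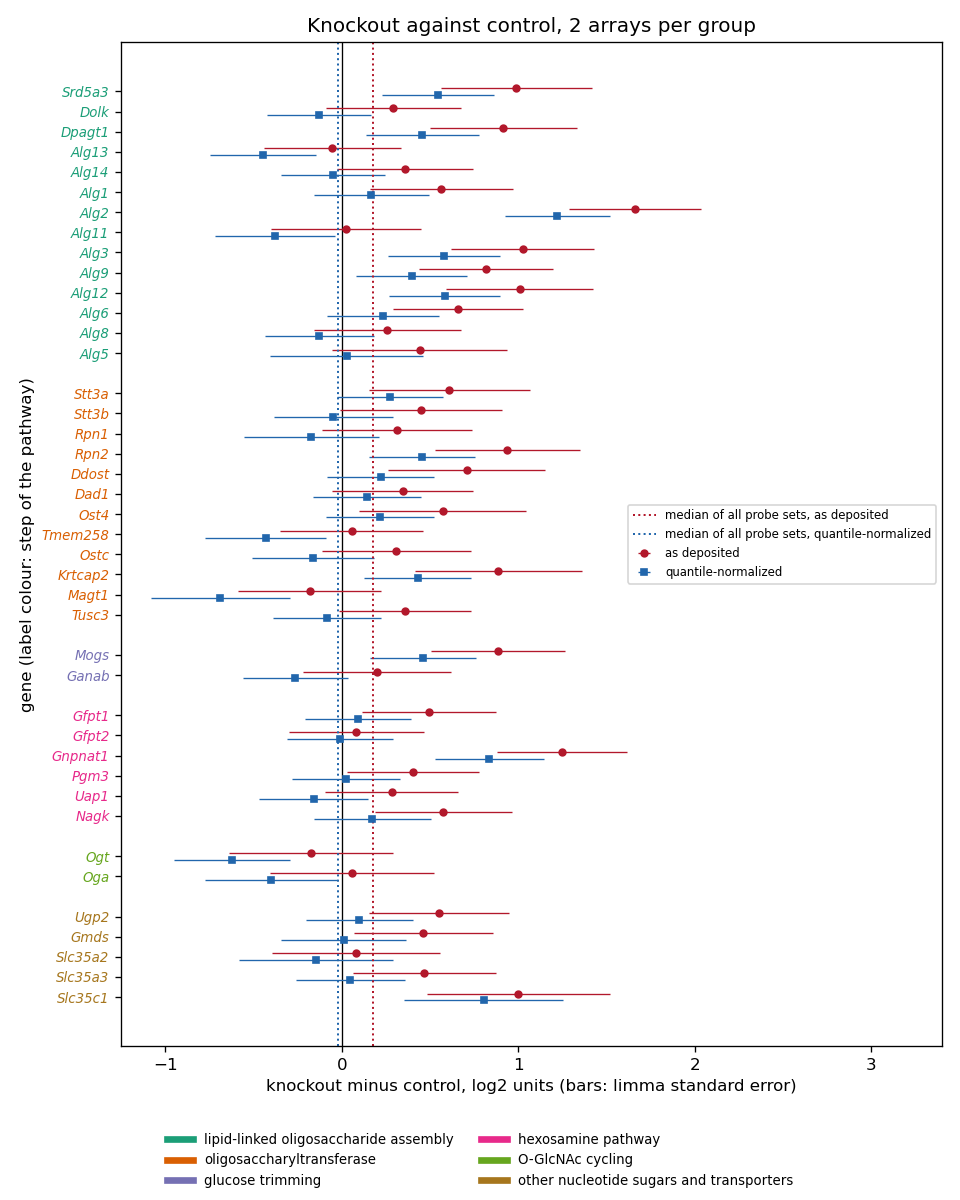
Knockout minus control in log2 units for each gene, as deposited (circles) and quantile-normalized (squares), with bars of 1 limma standard error and n = 2 arrays per group. Dotted lines mark the median of all probe sets, 0.18 as deposited and -0.021 quantile-normalized, and 24 of the squares lie above 0.

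The assembly of the lipid-linked oligosaccharide held Alg2, the gene with the largest difference of the 41 in both scalings. Of its 14 genes 13 were higher as deposited, with a median of 0.61 log2 units and a range of -0.053 to 1.66. After quantile normalization 9 were higher, with a median of 0.20. Both clones lay above both controls for 9 genes as deposited and for 6 quantile-normalized (Srd5a3, Dpagt1, Alg2, Alg3, Alg9 and Alg12), against 27.8% and 19.2% of all probe sets. In the latter scaling both lay below for 3 of the 14, Dolk, Alg13 and Alg14, about the share over all probe sets, 21.3%.

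The first steps make dolichol phosphate and load it with sugar on the cytosolic face. Srd5a3, the reductase that completes dolichol, stood at 11.76 on MOCK, 10.78 on WT, 12.34 on clone 1 and 12.17 on clone 2, a difference of 0.99 log2 units (SE 0.43, limma adjusted p = 0.546). Dolk, which phosphorylates dolichol, differed by 0.29. Dpagt1, the enzyme that starts the chain and the target of tunicamycin, stood at 12.24 on MOCK, 11.59 on WT, 12.53 on clone 1 and 13.13 on clone 2, a difference of 0.91 (SE 0.42). The quantile-normalized differences were 0.54 for Srd5a3, -0.13 for Dolk and 0.46 for Dpagt1. Alg13 and Alg14, which together add the next GlcNAc, differed by -0.053 and 0.36, and by -0.45 and -0.049 quantile-normalized, so neither part of that enzyme stood higher in the clones once the arrays were aligned.

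Of the cytosolic mannosyltransferases, Alg2 had the widest difference. Alg2, which adds the mannoses that open both arms of the core, stood at 8.71 on MOCK, 8.48 on WT, 10.15 on clone 1 and 10.36 on clone 2, so the controls averaged 8.60 ± 0.16 (SD, n = 2) and the clones 10.26 ± 0.15 (SD, n = 2). Both clones were well above both controls, and the knockout mean was 3.16-fold higher, a difference of 1.66 log2 units (SE 0.37, limma adjusted p = 0.196, and 0.0527 to 1 over the alternatives). Quantile-normalized it was 1.22 (SE 0.30, adjusted p = 0.367), with controls at 8.74 and 8.88 and clones at 10.02 and 10.05. Alg1, which adds the mannose before it, differed by 0.56, or 0.17 quantile-normalized. Alg11, which adds the mannoses after it, differed by 0.024, or -0.38, with the groups overlapping in both scalings. Whether Alg2 differed more than these enzymes was not tested.

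On the luminal face, the mannosyltransferases Alg3, Alg9 and Alg12 had both clones above both controls in either scaling. Alg3, which starts the luminal mannoses, stood at 11.39 on MOCK, 10.68 on WT, 12.22 on clone 1 and 11.90 on clone 2, 2.03-fold higher (SE 0.41 log2 units, limma adjusted p = 0.512). Alg12, which adds a mannose to the upper branch, stood at 9.62 on MOCK, 8.79 on WT, 10.08 on clone 1 and 10.35 on clone 2, 2.01-fold higher (SE 0.41 log2 units, adjusted p = 0.528). Alg9 differed by 0.82 log2 units (SE 0.38). Quantile-normalized, the differences were 0.58 for Alg3, 0.39 for Alg9 and 0.58 for Alg12. The MOCK value of each lay closer to the clones than the WT value did as deposited. The glucosyltransferases that cap the chain differed less, by 0.66 for Alg6 and 0.26 for Alg8, or 0.23 and -0.13 quantile-normalized. Alg5, which makes the glucose donor for both, was higher in clone 2 alone, at 9.63 beside 8.14 in clone 1, 8.56 in MOCK and 8.33 in WT.

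Promoter letters were searched for the elements that ER stress factors read, since several genes of this pathway are known to answer to ER stress. Of the 41 genes 35 had a window of 300 bases in the RefSeq table, from 250 before to 50 after the gene start (GRCm38.p6), and Alg2 and Gnpnat1 had none. The ER stress response element, CCAAT and CCACG separated by 9 bases of any kind and read by ATF6 with the factor NF-Y, was found on either strand in 1 of the 35, Alg12, and in 0.119% of all 32851 windows. It lies on the gene's own strand, from base -220 to base -202 relative to the gene start. The cyclic AMP element TGACGTCA was found in 1 of 35, Alg13, from base 30 after the start, and in 1.79% of all windows. TGACGTGG, the core of the element read by XBP1 and ATF6, and TGATGNAAT, of the kind read by ATF4, were in 0 of 35, against 0.676% and 0.965% of all windows. These are matches of letters, and binding was not measured. The 250 bases before the start of Alg12 (chr15:88819319-88819568, minus strand) are shown because it alone carries the full element, in capitals.
Alg12: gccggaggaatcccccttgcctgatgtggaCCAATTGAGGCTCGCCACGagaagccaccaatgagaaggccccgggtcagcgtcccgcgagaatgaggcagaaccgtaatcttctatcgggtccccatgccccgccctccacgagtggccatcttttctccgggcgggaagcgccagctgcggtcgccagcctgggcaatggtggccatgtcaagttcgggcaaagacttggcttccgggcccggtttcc

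In the oligosaccharyltransferase several subunits stood lower in clone 2 than in clone 1. As deposited 11 of its 12 genes were higher in the knockout, with a median of 0.40 log2 units, and quantile-normalized 6 of 12, with a median of 0.048. Both clones lay above both controls for Rpn2, Ddost, Krtcap2 and Tusc3 as deposited, and for Stt3a, Rpn2, Ddost and Krtcap2 quantile-normalized. These are 4 of 12 in each scaling, against 27.8% and 19.2% of all probe sets. Of the probe sets above the median signal, 34.7% and 18.4% did so. Clone 1 was above clone 2 for 11 of the 12 as deposited, all but Ost4. Quantile-normalized it was so for all but Stt3a, Rpn2 and Ost4. As deposited this held for 9128 of all 22206 probe sets, and for 1012 of the 2042 with a mean signal of 12 or more. The 5 subunits with the widest gap between the clones were Rpn1, Magt1, Ostc, Stt3b and Tmem258, chosen after their values were seen, at 0.53 to 0.84 log2 units. For Rpn2, Stt3a, Tusc3 and Krtcap2 the clones were nearly level as deposited, with clone 2 minus clone 1 at -0.012, -0.028, -0.037 and -0.064.

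The catalytic subunits Stt3a and Stt3b define separate complexes. STT3A works beside the translocon while the chain is being made, and STT3B modifies sites that STT3A skipped. Stt3a stood at 16.77 on MOCK, 15.54 on WT, 16.78 on clone 1 and 16.75 on clone 2, so MOCK and both clones were level and WT was low (difference 0.61 log2 units, SE 0.46, limma adjusted p = 0.745). Stt3b stood at 14.27 on MOCK, 13.18 on WT, 14.47 on clone 1 and 13.87 on clone 2, with MOCK between the clones (difference 0.45, SE 0.46). Quantile-normalized, the differences were 0.27 for Stt3a and -0.048 for Stt3b.

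Ostc and Krtcap2 attach the STT3A complex to the translocon. Krtcap2 stood at 14.94 on MOCK, 13.59 on WT, 15.18 on clone 1 and 15.12 on clone 2, a difference of 0.89 log2 units (SE 0.47, limma adjusted p = 0.641), or 0.43 quantile-normalized. Ostc stood at 12.69, 12.01, 12.97 and 12.35 in the same order, with clone 2 between the controls, a difference of 0.31 (SE 0.42), or -0.16. Magt1 and Tusc3 are the alternative oxidoreductase subunits of the STT3B complex. Magt1 stood at 12.98 on MOCK, 12.78 on WT, 13.06 on clone 1 and 12.34 on clone 2, lowest in clone 2 (difference -0.18, SE 0.40, adjusted p = 0.932), and quantile-normalized at 12.83, 13.45, 12.88 and 12.04 (difference -0.69, SE 0.39). Tusc3 stood at 10.93, 10.64, 11.16 and 11.13, a difference of 0.36 (SE 0.37), or -0.085 quantile-normalized. For Ostc and Tusc3 the sign thus turned with the scaling.

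Among the subunits shared by both complexes are the ribophorins Rpn1 and Rpn2, whose differences were not tested against each other. Rpn2 stood at 14.34 on MOCK, 13.51 on WT, 14.87 on clone 1 and 14.85 on clone 2, 1.91-fold higher (SE 0.41 log2 units, limma adjusted p = 0.555), or 0.45 log2 units quantile-normalized. Rpn1 stood at 12.68 on MOCK, 12.24 on WT, 13.19 on clone 1 and 12.35 on clone 2, with clone 2 between the controls, and quantile-normalized clone 2 was 0.64 below the mean of the controls and clone 1 0.30 above. Ddost, a structural subunit, differed by 0.71 and by 0.22 quantile-normalized. The small subunits Dad1, Ost4 and Tmem258 differed by 0.35, 0.57 and 0.056, or by 0.14, 0.22 and -0.43.

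The glucosidases of the first trimming steps were Mogs and Ganab, whose differences were not tested against each other. Mogs, which removes the outermost glucose, stood at 8.71 on MOCK, 8.33 on WT, 9.42 on clone 1 and 9.38 on clone 2, 1.85-fold higher (SE 0.38 log2 units, limma adjusted p = 0.545), and both clones stayed above both controls quantile-normalized (0.46 log2 units). Ganab, the catalytic subunit of the enzyme that removes the remaining glucoses, stood at 13.29, 12.41, 12.91 and 13.18, with both clones between the controls (difference 0.20, SE 0.42). Quantile-normalized it was -0.26, with both clones below both controls.

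In the hexosamine pathway, which turns fructose phosphate into UDP-GlcNAc, Gnpnat1 had the widest difference in both scalings. All 6 genes had a higher knockout mean as deposited, with a median of 0.45 log2 units, and 4 of 6 quantile-normalized, with a median of 0.057. Gnpnat1, which acetylates glucosamine phosphate, stood at 7.84 on MOCK, 7.88 on WT, 9.09 on clone 1 and 9.12 on clone 2, so the controls averaged 7.86 ± 0.03 (SD, n = 2) and the clones 9.11 ± 0.02 (SD, n = 2). As deposited the arrays of each group were close together and the groups far apart, a 2.37-fold difference (1.25 log2 units, SE 0.37) that did not pass (limma adjusted p = 0.353, and 0.232 to 1 over the alternatives). Quantile-normalized it was 0.84 (SE 0.31), with MOCK at 7.89, WT at 8.24, clone 1 at 8.99 and clone 2 at 8.81, so the controls were less close.

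The other hexosamine enzymes differed little. Gfpt1, the rate-limiting entry enzyme, stood at 10.37 on MOCK, 9.93 on WT, 10.66 on clone 1 and 10.62 on clone 2, a difference of 0.49 log2 units (SE 0.38), or 0.090 quantile-normalized. Its paralog Gfpt2 stood at 5.33, 4.98, 5.09 and 5.39, below the 75th percentile of the negative controls on all 4 arrays, so no fold is given. Pgm3 and Uap1, the enzymes after Gnpnat1, differed by 0.40 and 0.28, or by 0.024 and -0.16. Nagk, which returns salvaged GlcNAc to the pathway, stood at 7.91 on MOCK, 8.13 on WT, 8.35 on clone 1 and 8.85 on clone 2, a difference of 0.57 (SE 0.39), or 0.17. Both clones lay above both controls for 5 of the 6 genes as deposited, and for 1, Gnpnat1, quantile-normalized. Of all probe sets 27.8% and 19.2% did so.

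The enzymes of O-GlcNAc cycling, which spend UDP-GlcNAc on nuclear and cytosolic proteins, had the lowest median difference of the steps, at -0.060 log2 units as deposited and -0.51 quantile-normalized. Ogt, the transferase, stood at 12.85 on MOCK, 11.61 on WT, 11.86 on clone 1 and 12.25 on clone 2, with both clones between the controls (difference -0.18 log2 units, SE 0.47, limma adjusted p = 0.945). Oga, the hydrolase that removes the sugar, stood at 12.34, 11.63, 11.50 and 12.58, lowest in clone 1 and highest in clone 2 (difference 0.055, SE 0.47). Quantile-normalized, Ogt differed by -0.62 with both clones below both controls, and Oga by -0.40 with the groups overlapping.

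Of the genes of other nucleotide sugars and their transport, the GDP-fucose transporter Slc35c1 stood above the background features in clone 2 alone. It stood at 5.49 in MOCK, 5.15 in WT and 5.50 in clone 1, all under the 75th percentile of the negative controls, while clone 2 reached 7.13. With 3 arrays at that level no difference is given. The limma adjusted p was 0.633, and 0.0417 to 1 over the alternatives, with Slc35c1 called under 1 of 14, quantile normalization with clone 1 left out. Ugp2, which makes UDP-glucose, stood at 11.72 on MOCK, 11.05 on WT, 12.02 on clone 1 and 11.85 on clone 2, a difference of 0.55 (SE 0.40), or 0.10 quantile-normalized. Gmds, the first enzyme from GDP-mannose to GDP-fucose, differed by 0.46, or 0.0094. Slc35a3, a carrier of UDP-GlcNAc into the Golgi, differed by 0.47, or 0.047, with the groups overlapping. Slc35a2, the UDP-galactose carrier, stood at 5.56, 6.21, 5.36 and 6.56, below the 75th percentile of the negative controls except on clone 2.

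Single arrays, which have no test, show where the clones went apart. At least 1 log2 unit above the mean of the controls stood 4 members in clone 1, against 6.31% of all probe sets, and 6 in clone 2, against 11.8%. Of the 11103 probe sets above the median signal, 1081 stood so in clone 1 and 2079 in clone 2. Quantile-normalized the members were 1, Alg2, in clone 1, against 3.94% of all probe sets, and 2, Alg2 and Slc35c1, in clone 2, against 5.41%. The clones were at least 1 unit apart for 4 members, Alg5, Oga, Slc35a2 and Slc35c1, all higher in clone 2, against 12.7% of all probe sets. Of these Slc35a2 and Slc35c1 had 3 arrays at the level of the negative controls. Quantile-normalized they were that far apart for 2, Alg5 and Slc35c1, against 11.3%. In the transferase the median gap, clone 2 minus clone 1, was -0.23 as deposited and -0.19 quantile-normalized, and in precursor assembly 0.23 and 0.048. Over all probe sets the medians were 0.13 and -0.0084. Subunits that stood low in clone 2 quantile-normalized were Magt1 at 1.11 below the mean of the controls, Tmem258 at 0.75, Rpn1 at 0.64 and Ostc at 0.53, chosen after their values were seen.

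**Figure D3:**
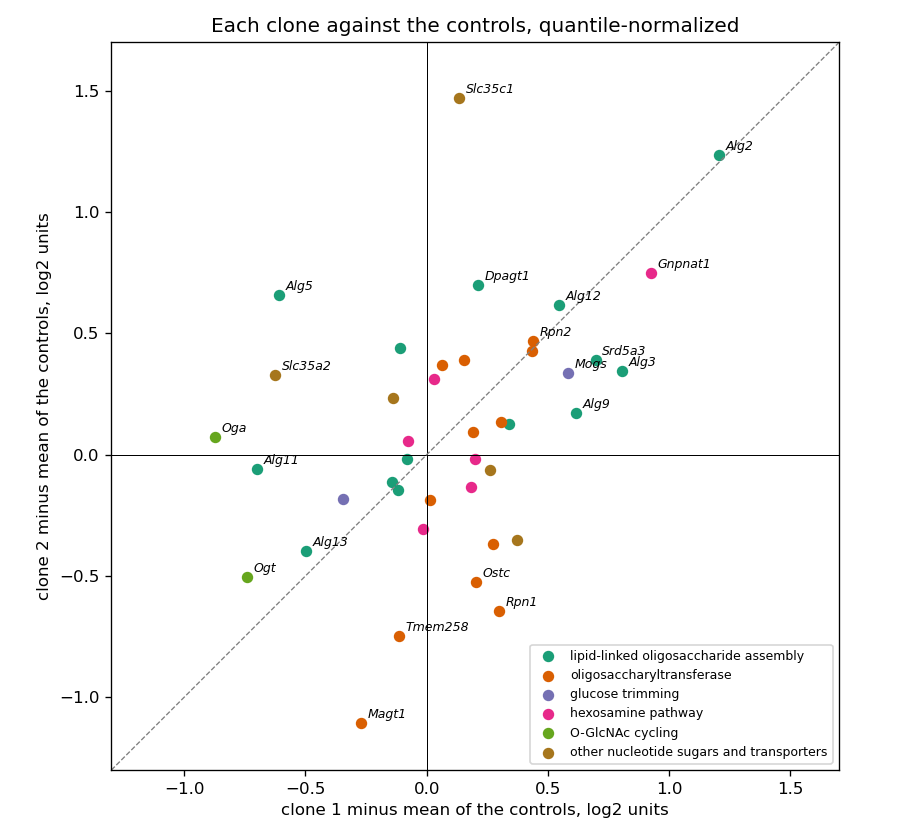
Quantile-normalized difference of clone 1 (horizontal axis) and of clone 2 (vertical axis) from the mean of the controls, in log2 units, 1 point per gene coloured by step, with the dashed line where both are equal. Both axes share the controls and each clone is 1 array. Alg2 and Gnpnat1 lie near the line at the upper right, Slc35c1 is high in clone 2 alone, and Magt1, Tmem258, Rpn1 and Ostc lie below the line.

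Alg2 lies on chromosome 4 beside other genes that were higher in the clones. Among the 20 measured genes nearest to it in order, the median difference was 0.51 log2 units, or 0.25 quantile-normalized. Both clones lay above both controls for 11 of the 20, or 8 quantile-normalized, against the 27.8% and 19.2% of all probe sets. Just before it Tgfbr1, a TGF-beta receptor, differed by 1.26, or 0.86, and directly after it Sec61b by 0.62, or 0.24. Further out Nans, which makes sialic acid, differed by 1.71, or 1.25. On all 4 arrays Nr4a3, Tbc1d2, Gabbr2, Anks6, Galnt12, Col15a1, Cavin4 and Plppr1 lay under the 75th percentile of the negative controls. Coro2a did so on 3 arrays and Trim14 on both controls. Of the 11 genes above as deposited, Nr4a3, Anks6, Galnt12, Col15a1, Coro2a and Trim14 are among these. Gnpnat1 on chromosome 14 had neighbours with a median of 0.62, or 0.24, and 12 of 20 above, or 8. Its direct neighbours Styx and Fermt2 differed by 0.44 and 0.70, or 0.0068 and 0.30. Of the 12, Ptger2 on all 4 arrays and a RIKEN cDNA gene on 3 lay under that percentile. For the other 5 members at an unadjusted p under 0.05 the neighbours' median ran from 0.15 to 0.42, and from -0.059 to 0.085 quantile-normalized. The part of the neighbourhood in these differences was not tested.

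**Figure D4:**
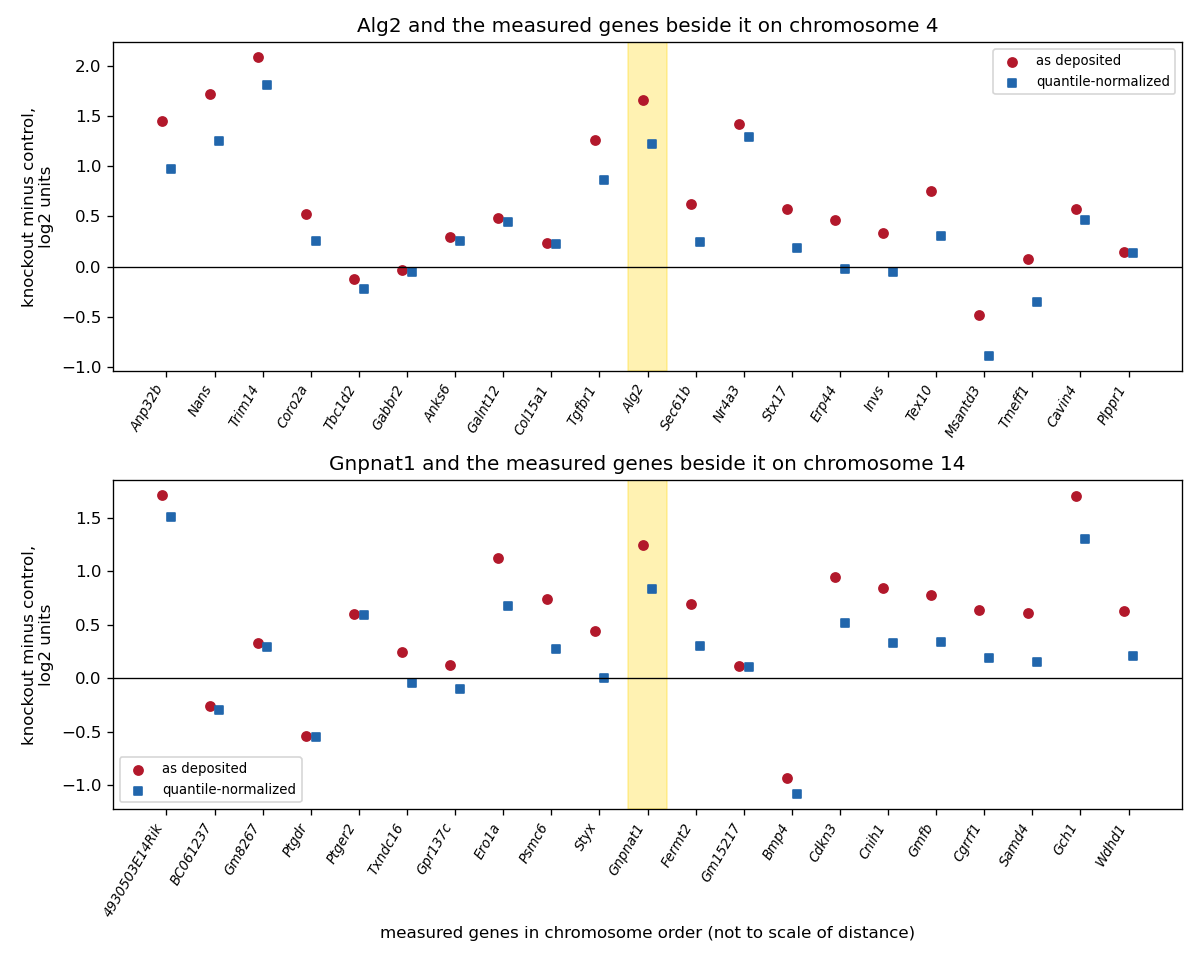
Knockout minus control in log2 units of Alg2 (above) and Gnpnat1 (below), shaded, and of the 10 measured genes on each side in chromosome order, as deposited (circles) and quantile-normalized (squares). Deposited values above 1 also occur at Trim14, Nans, Anp32b, Nr4a3 and Tgfbr1 beside Alg2, and at Gch1, Ero1a and a RIKEN cDNA gene beside Gnpnat1, of which Trim14, Nr4a3 and the RIKEN gene have 2 to 4 arrays at the level of the negative controls.

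Other genes of the same supply lines were read from a list of 45, of which 39 were measured. Limma called 0 of them as deposited. At an unadjusted p under 0.05, 7 were higher, against 7.54% of all probe sets and 1353 of the 11103 above the median signal. Of the 39, 36 had a higher knockout mean as deposited, against 65.1% of all probe sets and 8680 of those 11103. Both clones lay above both controls for 23, or 13 quantile-normalized, against 27.8% and 19.2%. Their median difference was 0.66 log2 units, or 0.24. The widest were Galt, which turns phosphorylated galactose into UDP-galactose, and Gne and Nans, enzymes of sialic acid synthesis. Galt stood at 6.03 on MOCK, 5.56 on WT, 8.73 on clone 1 and 7.41 on clone 2, with both controls below the 75th percentile of the negative controls (limma adjusted p = 0.155, and 0.000484 to 1 over the alternatives). Gne stood at 10.26, 9.41, 11.55 and 11.86, a difference of 1.87, or 1.43 quantile-normalized (limma adjusted p = 0.191, and 0.0282 to 1 over the alternatives). Nans stood at 10.76, 10.60, 12.90 and 11.88 (adjusted p = 0.257, and 0.0287 to 1). Galt passed under 5 of the 14 alternatives, Gne under 4 and Nans under 2. With all 4 arrays kept, these were the filters on signal at the median and the 25th percentile and trend and robust for Galt. For Gne they were the median filter and trend and robust. Those settings called 196 of 11103, 125 of 16654 and 340 of 22206 probe sets. The rest, and both for Nans, left 1 clone out, so a single knockout array stood for the group. Slc35b4, a nucleotide sugar carrier, passed under 2, both with clone 1 left out.

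Galt, Gne, Nans and Alg2 were the 4 of all 80 pathway genes measured with a difference of at least 1.5 log2 units, and all 4 lie on chromosome 4, where 10 of the 80 lie. Quantile-normalized, Galt was the 1 that reached 1.5. Of the 95 measured genes from Galt to Alg2, a stretch chosen after these values were seen, 50.5% had both clones above both controls, against 36.6% of the 1084 others on the chromosome. Quantile-normalized these were 46.3% and 27.5%. The stretch includes Galt, Gne, Nans and Alg2, each with both clones above both controls in both scalings. Its shares thus hold values that led to its choice. The median difference did not stand out as deposited, at 0.30 in the stretch and 0.30 on the rest, and was 0.25 and 0.085 quantile-normalized. The members Alg6 and Ddost, elsewhere on chromosome 4, differed by 0.66 and 0.71, or by 0.23 and 0.22.

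The remaining supply genes differed by less. In dolichol and dolichol-phosphate sugar synthesis, Dpm2, a subunit of the mannose donor synthase, stood at 7.65 on MOCK, 7.27 on WT, 8.36 on clone 1 and 8.53 on clone 2, a difference of 0.98 log2 units (SE 0.38), or 0.60 quantile-normalized. Nus1, part of the enzyme that makes the dolichol chain, stood at 12.88, 11.98, 13.99 and 12.72, a difference of 0.93, or 0.44. In GDP-mannose and GDP-fucose synthesis, Gfus differed by 0.81 and Pmm1 by 0.78, or by 0.44 and 0.42. Slc35b4 stood at 10.67 in clone 1 and 12.78 in clone 2, beside 10.79 and 10.24 in MOCK and WT, a difference of 1.21, or 0.80. Of the 10 genes of the folding checkpoint and deglycosylation all had a higher knockout mean, or 9 quantile-normalized. Among them Ngly1, which strips N-glycans from misfolded proteins in the cytosol, stood at 5.22 on MOCK, 5.45 on WT and 6.41 on clone 1, all below the 75th percentile of the negative controls, and above it on clone 2. Pdia3, a protein disulfide isomerase, stood at 14.59, 13.80, 15.51 and 14.38, with clone 2 between the controls, a difference of 0.75, or 0.27.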

How the data were processed

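RNA of 4 MC38 samples was measured on 1 Clariom S array each. Per the submitters' processing notes and the labels, the authors used the Transcriptome Analysis Console. The deposited values are normalized log2 signals, a scale taken from the range of the numbers. The sources used here do not give the normalization, the summarisation, the software version or the annotation build. Groups came from the sample titles, since a cell label names the knockout on all 4 samples. The 6640 control features were left out of the 28846 in the table, and 22206 probe sets were tested without a filter. Gene names came from the platform annotation, matched by Entrez identifier to the RefSeq table of GRCm38.p6 for 19572 probe sets. For neighbouring genes the positions in that table gave gene order only. The highest-mean probe set stood for a gene.

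Limma 3.58.1 under R 4.3.3 (lmFit, eBayes) compared knockout with control over all probe sets, with Benjamini-Hochberg adjustment, and was tested on simulated data. Standard errors are moderated. The members and lists were chosen with earlier results of these data known. The number of arrays limits the precision. Values on every array are given for members called or at an unadjusted p under 0.05 in either scaling, the widest 2 per step, those 1.5 log2 units apart within a group, and the paralog pairs. Others with values on every array were chosen after their values were seen. Alternatives were quantile normalization, median centring, filters on signal, eBayes with trend and robust, averaging of probe sets and each array left out.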

Additional observations from a re-analysis of the deposited data

How the results depend on the processing

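No paired analysis was possible because the labels link no control array to a clone. Limma called 0 members under each setting that changed 1 choice alone, with lowest adjusted p-values of 0.0527 to 1, while the count over all probe sets, 9 as deposited, ran from 0 (without WT, where 832 had an unadjusted p under 0.05) through 1 (quantile normalization, or without MOCK), 125 and 196 (filters at the 25th percentile and the median), 149 (without clone 2) and 340 (trend and robust) to 529 (without clone 1). With quantile normalization and clone 1 left out, added after seeing the data, it called 1, Slc35c1, beside 804 of all probe sets. The members with both clones above both controls numbered 22 as deposited and 13 quantile-normalized, against 27.8% and 19.2% of all probe sets. With an array left out, members with every remaining knockout array above every remaining control numbered 22 to 36, the highest without MOCK. Of all probe sets 35.0% (without WT) to 54.7% (without MOCK) did so. The median difference of all 41 members, 0.46, ran from 0.22 (without WT) to 0.68 (without MOCK) as deposited. It was 0.047 quantile-normalized, and 0.022, 0.101, 0.086 and 0.171 when MOCK, WT, clone 1 or clone 2 was also left out. Of the 120 values of 20 named members under the settings that can move them (scaling, arrays left out) 103 kept their direction, and 17 turned. Quantile-normalized, Stt3b was -0.048, Tusc3 -0.085, Ganab -0.26, Gfpt2 -0.010 and Oga -0.40, and with median centring Gfpt2 was -0.055 and Oga -0.082. With an array left out, Ogt ran from -0.80 to 0.44, Stt3a from -0.0075 to 1.22, Stt3b from -0.097 to 0.99, Ganab from -0.24 to 0.64, Gfpt2 from -0.093 to 0.26, Oga from -0.49 to 0.60 and Magt1 from -0.55 to 0.18. Others kept their sign but moved by over 1.5 times. Without WT, Krtcap2 was 0.22, Srd5a3 0.50, Alg12 0.59, Alg3 0.67, Rpn2 0.52, Tusc3 0.21, Gfpt1 0.27 and Ugp2 0.22, without MOCK Krtcap2 was 1.56 and Ugp2 0.88, and without clone 2 Nagk was 0.32. Slc35c1 moved as far without either clone. A lone array of a group was then assumed to vary like the other group. All 41 members passed the filter at the 25th percentile of signal, and 40 that at the median. Each member has 1 probe set, so averaging left its values as they were.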
